A study of Mus musculus with 4 samples.

Results

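Primitive erythroid cells, the first red blood cells of the embryo, were followed across 3 stages of mouse development. The cells were chosen by their globin content. A cell was a member if it came from the E8.0, E8.25 or E10.5 library, had at most 10% of its UMIs (distinct captured RNA molecules) from mitochondrial genes, and had 5% or more of them from the 7 globin genes Hbb-y, Hbb-bh1, Hbb-bs, Hbb-bt, Hba-x, Hba-a1 and Hba-a2. This gave 1526 cells of the 18607 deposited for the 3 libraries, and of 22662 in the whole series. The E8.0 library held 69 of them, the E8.25 library 325 and the E10.5 library 1132.

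The series held 4 single-cell libraries of the Mesp1 lineage, 1 for each of the embryonic days E8.0 and E8.25, then E9.5 and finally E10.5, all from pooled Swiss Webster embryos of the genotype Mesp1Cre;Rosa26-GFPflox/+. In these embryos Cre is expressed from the Mesp1 gene, which is active in early mesoderm, and permanently switches on a GFP reporter, so that a cell is recovered only if an ancestor expressed Mesp1. Living GFP-positive cells were sorted, at the earlier pair of stages from the upper portion of the body, and at the later pair from the pharyngeal apparatus and heart. Region therefore changed with stage, and the effects of both on E10.5 values cannot be told apart. There was no mutant or treated group. With 1 library a stage, nothing here has a replicate check, and every interval below is a 95% interval for counting error alone. Where 3 values are listed with no stage named, their order is E8.0, E8.25, E10.5.

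Primitive erythroid cells arise from mesoderm in the blood islands of the yolk sac and enter the circulation as nucleated cells once the heart beats. They then mature in the bloodstream as a wave, filling with haemoglobin while they divide, and condense and later lose their nucleus. Haemoglobin is a tetramer of 2 alpha-type and 2 beta-type chains, each holding a haem group with an iron atom. Primitive cells use the embryonic chains zeta (Hba-x), epsilon-y (Hbb-y) and beta-H1 (Hbb-bh1) beside adult alpha chains (Hba-a1, Hba-a2), whereas the adult beta chains (Hbb-bs, Hbb-bt) dominate in the definitive red cells of the fetal liver and bone marrow.

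Members made up 0.911% of the cells that passed the mitochondrial filter at E8.0 (69 of 7577, exact Clopper-Pearson interval 0.709 to 1.15%), 11.0% at E8.25 (325 of 2954, 9.90 to 12.2%) and 14.1% at E10.5 (1132 of 8044, 13.3 to 14.9%). The shares hold for what was sorted, not for whole embryos. The threshold cut through a continuous spread at E8.0, where 92 further cells had from 2 to 5% globin and the highest cell outside the rule stood at 4.99%. At E8.25 and E10.5 it fell in a gap, with 7 and 11 cells from 2 to 5%. At E8.0 the 92 cells under the threshold had 268.6 CPM of Klf1 against 347 CPM in the members, and Hbb-y made up 2.98% of their beta-type globin UMIs against 5.65%. CPM here and below means UMIs per 1000000 UMIs outside the 7 globin genes, summed over the cells of a group, because globin itself took up from 6.05% to 43.7% of all UMIs of the members.

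The labelled cell type was checked against 5 markers. Hbb-y, Hba-x and Hbb-bh1 helped to choose the cells and say nothing further, whereas Alas2 (the first enzyme of haem synthesis in red cells) and Klf1 (the master activator of erythroid genes) were not part of the rule. Klf1 had a UMI in 69 of 69 members at E8.0, 325 of 325 at E8.25 and 1097 of 1132 at E10.5. Alas2 had one in 68, 325 and 1129 members. In the other cells of the same libraries, most of which should lack both genes, Alas2 UMIs were seen in 2.40%, 24.0% and 13.0% of cells at median depths of 21624, 34063 and 14738 UMIs, against member medians of 35904, 52603 and 28528 UMIs. The other cells also held a median of 0.0119%, 0.3001% and 0.5002% globin UMIs. Klf1 UMIs were seen in 4.09%, 19.4% and 6.77% of the other cells. At E8.0 the other cells include the 92 at 2 to 5% globin, which were at 125.8 CPM of Alas2, against 187.5 CPM in the members. The source of the Alas2 and Klf1 UMIs in the other cells was not tested. With every cell thinned to 4000 non-globin UMIs, which left out 33 members at E10.5, Alas2 was seen in 47.8%, 78.8% and 98.6% of members and Klf1 in 72.5%, 76.0% and 79.2%.

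Outside the globins, the ratio of median UMIs in members to those in other cells was 1.575 at E8.0, 1.371 at E8.25 and 1.049 at E10.5. The median of UMIs outside the globins was 34051 at E8.0, 46548 at E8.25 and 15385 at E10.5, against 21623, 33964 and 14662 in the other cells. The median number of detected genes was 4574, 5310 and 3067 in members and 4379, 5376 and 3772 in other cells. Median mitochondrial UMIs stood at 1.83%, 1.72% and 1.59% of a member's total. No barcode of a member was shared with a member of another library.

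**Figure D1:**
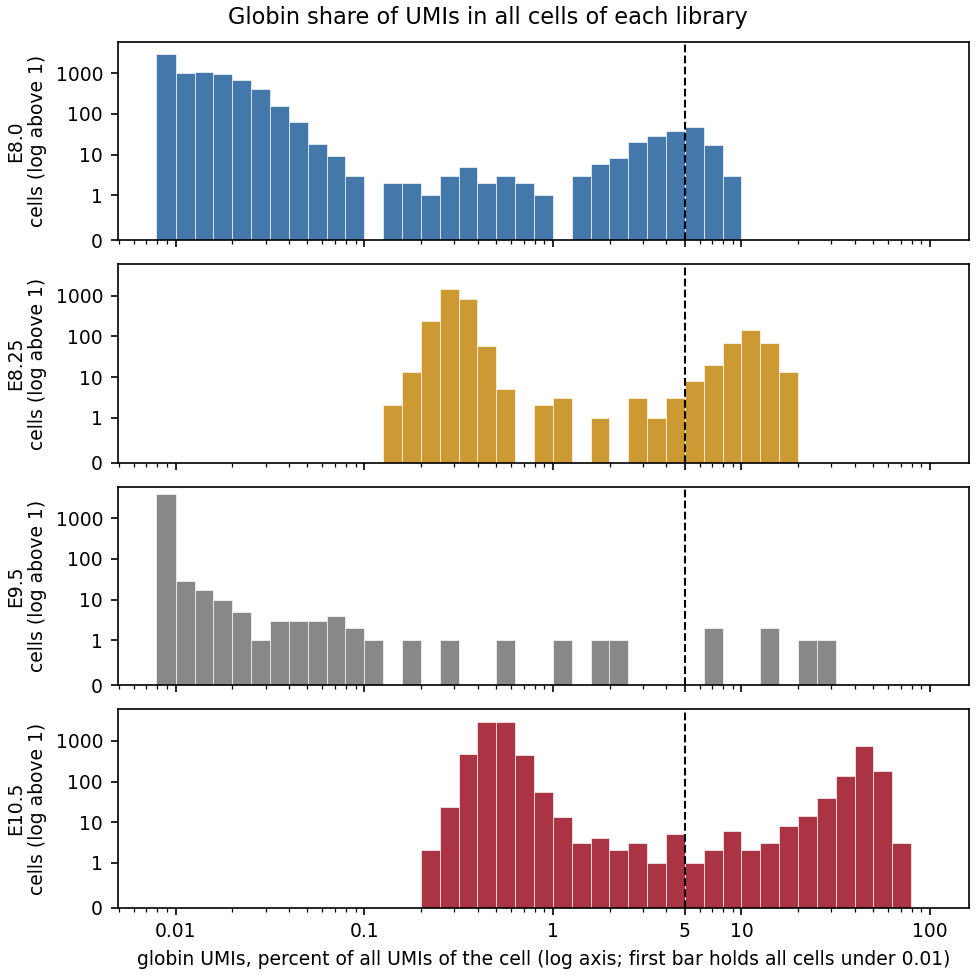
Number of cells (vertical axis, logarithmic above 1) by the share of UMIs from the 7 globin genes (horizontal axis, percent) in each library, with the 5% threshold marked. Members lie between 5 and 9.44% at E8.0, between 5.39 and 18.8% at E8.25 and between 5.24 and 79.2% at E10.5, where most lie from 40 to 60%.

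The globin load of a member was higher at each later stage, and Hbb-y increased most. These values chose the cells and are a description with no test. The 7 globins together made up 6.05% of member UMIs at E8.0, 11.2% at E8.25 and 43.7% at E10.5, and the median cell held 5.85%, 11.2% and 45.7%. Hbb-y made up 0.180% of all member UMIs at E8.0, 1.10% at E8.25 and 22.0% at E10.5. Hbb-bh1 made up 2.98%, 4.22% and 7.43%, and Hba-x 2.29%, 3.67% and 7.55%. Of the adult genes, Hba-a1 made up 0.547%, 2.13% and 6.23%, while Hbb-bs never passed 0.165% and Hbb-bt never passed 0.0240%. Hba-a2 is listed at 0.0201%, 0.00368% and 0.274%. Hba-a1 and Hba-a2 are near-identical copies, as are Hbb-bs and Hbb-bt, so the division of reads within each pair is uncertain and their sums are the safer values.

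Promoters of 3 globin genes are shown because genes of both globin loci increased together while their proportions changed. The 250 bases before the start of an embryonic beta-type gene, an embryonic alpha-type gene and an adult alpha-type gene are given from RefSeq on GRCm38.p6, the same assembly as mm10, each 5' to 3' on the strand of its gene. Capitals mark matches on either strand to GATAA (bound by GATA factors), CACCC (bound by Klf1 and relatives) and CCAAT (bound by NF-Y). Hbb-y is on the minus strand at chr7:103853208-103853457, Hba-x on the plus strand at chr11:32276350-32276599 and Hba-a1 on the plus strand at chr11:32283422-32283671.
Hbb-y: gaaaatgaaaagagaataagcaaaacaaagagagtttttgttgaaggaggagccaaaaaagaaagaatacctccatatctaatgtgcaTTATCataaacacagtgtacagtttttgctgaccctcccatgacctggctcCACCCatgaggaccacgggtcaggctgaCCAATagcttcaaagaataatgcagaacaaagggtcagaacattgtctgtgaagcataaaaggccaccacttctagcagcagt
Hba-x: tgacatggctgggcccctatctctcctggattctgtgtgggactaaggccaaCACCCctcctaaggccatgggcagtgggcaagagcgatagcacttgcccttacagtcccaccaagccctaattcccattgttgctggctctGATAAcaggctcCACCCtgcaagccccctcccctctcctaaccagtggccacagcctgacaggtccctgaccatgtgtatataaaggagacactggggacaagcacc
Hba-a1: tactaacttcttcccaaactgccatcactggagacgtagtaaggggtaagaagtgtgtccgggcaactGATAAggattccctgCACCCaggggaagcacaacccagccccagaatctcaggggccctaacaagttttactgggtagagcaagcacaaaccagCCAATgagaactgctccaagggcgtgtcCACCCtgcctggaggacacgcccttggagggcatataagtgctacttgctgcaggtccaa
Each of the 3 windows held GATAA once, at 162 bases before the start for Hbb-y, 107 for Hba-x and 182 for Hba-a1. CACCC stood at 111 bases for Hbb-y, at 198 and 95 for Hba-x and at 167 and 60 for Hba-a1. CCAAT stood at 83 bases for Hbb-y and 88 for Hba-a1 and had 0 matches in the window of Hba-x. Of 32851 windows of 250 bases in the same table, 22.6% held GATAA, 52.0% CACCC and 33.8% CCAAT, so each match alone is common. The motifs do not overlap here, and the matches are a description of the letters, not of binding. The table had no entry for Hbb-bh1.

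Among the beta-type chains, Hbb-bh1 gave way to Hbb-y. Hbb-y made up 5.65% of all beta-type UMIs (5.49 to 5.82%) at E8.0, 20.4% at E8.25 and 74.3% at E10.5, while Hbb-bh1 made up 93.4%, 78.4% and 25.1%. Single cells differed far more early than late. At E8.0 the Hbb-y share ran from 0 to 59.6% with a median of 0.379%, 38 of 69 cells were under 1%, and 15 had no Hbb-y UMI at all. At E8.25 it ran from 0.558 to 57.8% with a median of 15.2%, with 10 of 325 cells under 1% and 197 between 10 and 50%. At E10.5 it ran from 62.2 to 96.4% with quartiles of 72.5 and 75.8%, so that all 1132 cells lay above every E8.0 and E8.25 cell. The adult beta chains stayed at 0.994%, 1.18% and 0.638% of beta-type UMIs.

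Among the alpha-type chains the change was smaller. Hba-x made up 80.2% of alpha-type UMIs at E8.0, 63.3% at E8.25 and 53.7% at E10.5, the rest being adult alpha. The cells of successive stages overlapped, with ranges of 69.1 to 87.9%, 49.1 to 83.4% and 15.1 to 64.2%. Alpha-type UMIs numbered 0.895 per beta-type UMI at E8.0, 1.08 at E8.25 and 0.475 at E10.5, a comparison between genes that a 3' assay sets in part by how well each 3' end is captured. Within the E8.25 library the Hbb-y share was higher in cells with more globin (Spearman's rho 0.509 over 325 cells of 1 library, sharing all their globin counts). The rho was 0.130 over 69 cells at E8.0 and -0.0051 over 1132 cells at E10.5. For Hba-x it was -0.234, -0.529 and -0.337.

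**Figure D2:**
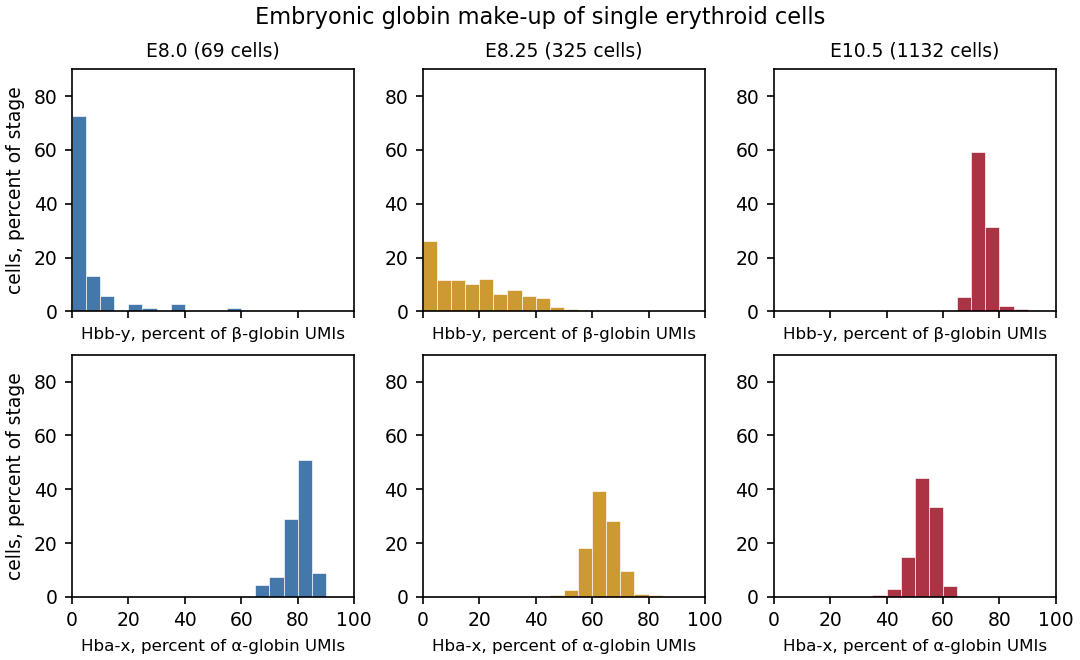
Histograms of single members by the Hbb-y share of beta-type UMIs (top row, percent) and the Hba-x share of alpha-type UMIs (bottom row, percent), with the percent of the cells of a stage on the vertical axis and 1 column per stage. The Hbb-y shares pile up near 0 at E8.0, spread up to 57.8% at E8.25 and lie between 62.2 and 96.4% at E10.5, while the Hba-x shares shift less.

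Minor globins outside the rule were also highest at E10.5. Hbq1b, a theta-type gene of the alpha locus, was at 17.4, 33.4 and 126.1 CPM, a log2 ratio of 1.92 (1.78 to 2.06) at the second step. Hbb-bh2 was at 1.83, 1.28 and 3.58 CPM (4, 20 and 65 UMIs), and Hbq1a at 1.37, 0.575 and 4.41 CPM (3, 9 and 80 UMIs). For E10.5 over E8.0 only 2 of the 3 genes were higher beyond counting error. The other cells held at most 0.537 CPM of the 3 genes together. Ahsp, the chaperone of free alpha chains, was not analysed here.

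Outside the globins, few genes separated E8.25 from E8.0 members and many separated E10.5 members from both. A gene was counted as higher or lower only where its log2 ratio and the interval bound nearest to 0 both lay beyond 2-fold, among genes with at least 50 UMIs in both sums together. Between E8.0 and E8.25, 80 of 8584 genes were higher (0.932% of those measured) and 48 lower (0.559%). Between E8.25 and E10.5, 594 of 10085 were higher (5.89%) and 376 lower (3.73%). Between E8.0 and E10.5, 536 of 9257 were higher (5.79%) and 301 lower (3.25%). The median log2 ratio over all measured genes was 0.06, -0.03 and 0.02 in the same order. Scaled to all UMIs, globins included, the median moved to -0.02, -0.69 and -0.72, and E10.5 over E8.25 had 264 genes higher and 1863 lower. Changes below are therefore relative to the non-globin RNA of the cell, and a gene that keeps its level there takes a smaller share of all RNA at E10.5. Counts of list genes below are to be read beside the percentages over all genes given here. For E8.25 over E8.0 these are so low that a short list may hold none past 2-fold.

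Part of these differences ran through the whole library. Of the 80 genes higher at E8.25 than at E8.0, 35 were past 2-fold the same way in the other cells, and of the 48 lower, 31 were. For E10.5 over E8.25 this held for 355 of 594 higher and 126 of 376 lower genes. The share of all measured genes past 2-fold in the other cells was not counted, so these overlaps are a description without a base rate. Members at E10.5 under 40% globin (220 of 1132) had higher levels of other cell types' markers than those at 40% or more (912). The 10 mesenchyme markers summed to 583 CPM in the 22 members at 5 to 20% globin, 352 CPM in the 198 at 20 to 40% and 75.5 CPM in the 908 at 40 to 60%. Cardiomyocyte markers summed to 270, 559 and 125 CPM, myeloid markers to 429, 11.9 and 11.5 CPM and epithelial markers to 208, 42.3 and 6.44 CPM. At E10.5 no gene of the mesenchyme, cardiomyocyte or myeloid list was at 0 in the members. Against E8.25, 8 of 9 measured cardiomyocyte markers, 5 of 10 mesenchyme markers and 4 of 4 myeloid markers were higher and 0 lower. In the members at 40% globin or more, 0 of 7 cardiomyocyte markers and 1 of 9 mesenchyme markers were higher, with 371 of all 9532 genes higher (3.89%) and 568 lower (5.96%). Of the other marker lists, endothelial genes summed to 125.7, 110.6 and 60.04 CPM in members and to 290.4, 259.7 and 268.5 CPM in other cells. Megakaryocyte genes summed to 11.9, 7.16 and 41.5 CPM against 4.20, 5.25 and 190.2 CPM, and yolk sac and visceral endoderm genes to 31.6, 57.01 and 51.5 CPM against 427, 344 and 227 CPM. A list of genes induced by tissue dissociation summed to 122, 178 and 168 CPM in members, with 2 of 6 measured higher and 0 lower at E8.25 against E8.0. Values of this set, chosen after seeing the data, are given below for some lists and genes. Marking of likely doublets took 103 of the 1132 members, with a median of 29.7% globin. The part of doublets and of free RNA in these values was not tested.

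Haem synthesis genes had a higher sum at each later stage. The 16 genes together were at 4608, 6942 and 11393 CPM, while the other cells stayed at 848, 829 and 876 CPM. From E8.0 to E8.25, the first step, 1 of 16 was higher past 2-fold and 1 lower, and from E8.25 to E10.5, the second, 4 were higher and 0 lower, with medians of 0.63 and 0.39 against 0.06 and -0.03 over all genes. Alas2 was at 187.5, 399.9 and 1348 CPM, higher by 1.09 (0.95 to 1.24) on the log2 scale and then by 1.75 (1.71 to 1.79). Fech, which inserts the iron as the last step, was at 121, 288 and 649 CPM, with log2 ratios of 1.25 (1.07 to 1.43) and 1.17 (1.12 to 1.22). Urod, in the middle of the pathway, was at 226, 344 and 720 CPM. Not all enzymes followed. Cpox was at 465, 761 and 687 CPM, and Alas1, the housekeeping counterpart of Alas2, stayed at or under 5.03 CPM at all 3 stages. Tmem14c, which carries a haem precursor into the mitochondrial matrix, was at 360, 132 and 1552 CPM, lower at the first step and higher by 3.56 (3.49 to 3.62) at the second, and the other cells had the same order at 84.0, 23.3 and 153 CPM. In haem breakdown, Blvrb was at 756, 1105 and 1502 CPM, while Hmox1, the haem-degrading enzyme, was at 4.12, 3.83 and 3.75 CPM. Hmox1 was at 1.18 CPM in E10.5 members at 40% globin or more and at 11.3 CPM in those below.

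Iron handling genes were higher mainly at the second step. The 14 genes summed to 11246, 13885 and 26799 CPM in members and to 6099, 6282 and 5730 CPM in the other cells. Of 11 measured at the first step 0 were past 2-fold, and of 13 at the second 4 were higher and 0 lower. Over all genes 0.932% were higher and 0.559% lower at the first step, and 5.89% and 3.73% at the second. Slc25a37 (mitoferrin 1, which brings iron into the mitochondria of red cell precursors) was at 267.5, 249 and 1100 CPM, a log2 ratio of 2.14 (2.09 to 2.19) at the second step. Fth1, the heavy chain of the iron store ferritin, was at 5350, 6027 and 13731 CPM, and the light chain Ftl1 at 4461, 6411 and 10665 CPM. Tfrc, the receptor for iron-loaded transferrin, was at 69.0, 84.6 and 128 CPM, within 2-fold at each step. Tfr2, a second transferrin receptor tied to the Epo receptor, was at 0.457, 2.05 and 10.9 CPM, and the iron exporter Slc40a1 at 2.29, 1.53 and 17.9 CPM. At E8.0 only 1 member had a UMI of Tfr2 and 5 had one of Slc40a1.

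**Figure D3:**
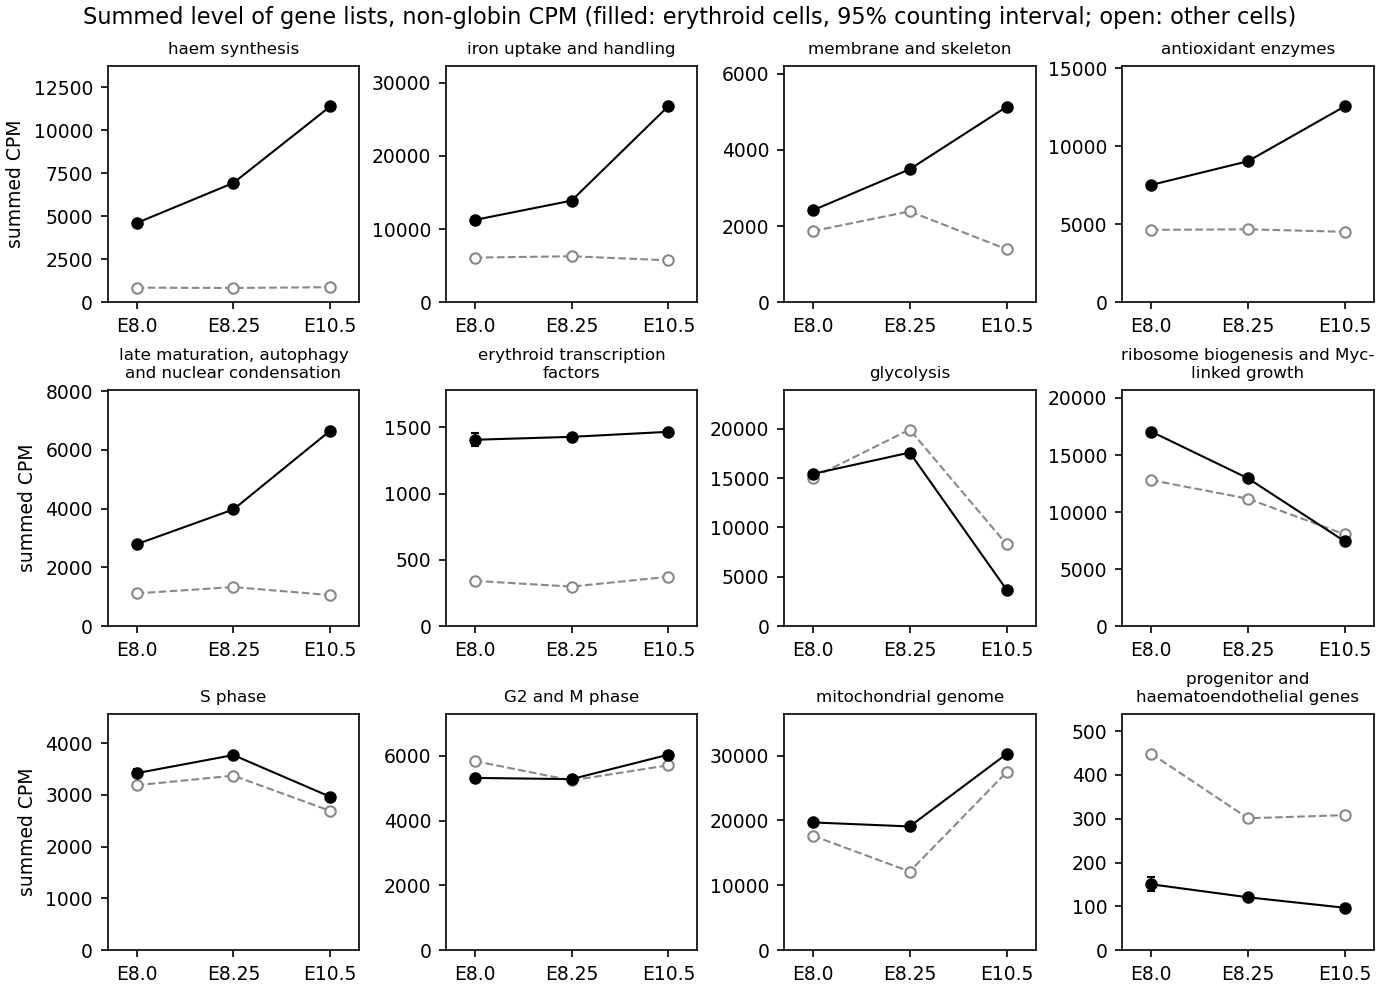
Summed level of each gene list (vertical axis, non-globin CPM from 0) at each stage in members (filled points, 95% counting interval) and other cells (open points). In members haem synthesis goes from 4608 to 6942 and 11393 CPM and glycolysis from 17574 CPM at E8.25 to 3702 CPM at E10.5.

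The transcription factors that run the erythroid programme changed little as a group. Their 17 genes summed to 1405, 1427 and 1465 CPM. Klf1 was at 347, 377 and 427 CPM, and Gata1, its partner, at 173, 140 and 127 CPM. Nfe2 was at 55.3, 71.9 and 72.9 CPM and Tal1 at 108, 123 and 146 CPM, all within 2-fold. Lmo2, a bridge of the Gata1 and Tal1 complex, was at 289, 174 and 80.03 CPM, lower by log2 ratios of -0.73 (-0.86 to -0.60) and -1.12 (-1.22 to -1.03). Lyl1, a relative of Tal1, was at 33.8, 108 and 124 CPM and the only 1 of 14 measured that was past 2-fold at the first step. At the second step 4 of 16 were higher (Zbtb7a, E2f2, Bcl11a and Nfia) and 1, Lmo2, lower, and with E10.5 members at 40% globin or more 3 of 15 were higher and 0 lower. Zbtb7a, a repressor of fetal globin genes in adult cells, was at 24.7, 17.7 and 80.6 CPM, a log2 ratio of 2.19. E2f2, a cell cycle factor of late erythroblasts, was at 7.32, 11.8 and 32.2 CPM. Bcl11a, another globin repressor, was at 0, 0.383 and 9.25 CPM, but at 3.62 CPM in the E10.5 members at 40% globin or more and 25.8 CPM in those below.

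Genes of blood progenitors and of the endothelium that gives rise to blood had a lower sum in members than in other cells, though not each gene did. The list of 20 summed to 150, 121 and 96.8 CPM, against 449, 301 and 308 CPM in the other cells. Runx1, needed for definitive blood formation, was at 38.4, 14.0 and 4.90 CPM, with log2 ratios of -1.46 (-1.83 to -1.08) and -1.51 (-1.89 to -1.15), against 2.97, 1.40 and 6.29 CPM in the other cells. Itga2b (CD41, the earliest surface marker of embryonic blood) was at 29.3, 21.5 and 8.04 CPM against 2.12, 2.08 and 4.20 CPM. Kit, the stem cell factor receptor, was at 4.12, 1.47 and 0.771 CPM, Gata2 at 0.915, 2.75 and 1.05 CPM, and Myb, needed for definitive but not primitive red cells, at 6.86, 0.895 and 0.551 CPM. At E8.0 Kit had a UMI in 9 members, Gata2 in 2 and Myb in 11. At the second step 1 of 13 measured was higher and 4 lower, and with E10.5 members at 40% globin or more 0 of 11 were higher and 5 lower.

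The red cell membrane list had higher genes at both steps. Of 28 measured genes 3 were higher and 0 lower at the first step, 14 higher and 3 lower at the second, and 16 higher and 0 lower between E8.0 and E10.5, with medians of 0.64, 1.06 and 1.70. The 3 higher at the first step were Slc4a1, Kel and Slc2a1, and the 3 lower at the second Slc2a1, Aqp8 and Cd24a. Slc4a1 (band 3, the anion exchanger and main membrane protein) was at 11.4, 172 and 459.6 CPM, with log2 ratios of 3.91 (3.35 to 4.54) and 1.42 (1.35 to 1.48). It had a UMI in 17 of 69 members at E8.0, 320 of 325 at E8.25 and 1119 of 1132 at E10.5. The other cells went from 0.175 to 6.35 and 6.31 CPM, a larger relative increase at the first step than in members. Kel, a blood group antigen, was at 1.83, 14.1 and 73.6 CPM.

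Of the membrane skeleton genes, Sptb, the beta chain of spectrin, was at 37.5, 49.3 and 109 CPM, and the band 4.2 gene Epb42 at 26.5, 38.5 and 94.1 CPM. Ank1, which links spectrin to band 3, was at 33.4, 29.7 and 57.0 CPM, short of 2-fold. The Rh complex genes had larger ratios, with Rhag at 11.0, 20 and 137 CPM and Rhd at 19.7, 36.9 and 286 CPM, log2 ratios of 2.78 (2.61 to 2.95) and 2.95 (2.83 to 3.08) at the second step. Channels and transporters went both ways. The glycerol channel Aqp3 was at 5.94, 17.1 and 126 CPM, whereas Aqp8 was at 54.9, 77.1 and 22.9 CPM. The glucose transporter Slc2a1 was at 105.2, 314 and 72.0 CPM, a log2 ratio of 1.58 (1.39 to 1.77) and then -2.12 (-2.21 to -2.03), and the other cells at 315, 386 and 52.0 CPM. Cd24a, which falls as red cells mature, was at 338, 471 and 190 CPM. In members at 40% globin or more the second step had 16 of 28 higher and 3 lower.

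Signalling and late maturation genes were mixed. The list of Epo and Kit signalling summed to 236, 463 and 544 CPM, with 1 of 9 measured higher at the first step, 2 of 11 at the second and 0 lower. Epor, the erythropoietin receptor, was at 111, 114 and 141 CPM, and the survival kinase Pim1, a target of its signal, at 78.2, 282 and 294 CPM. Of the list of late maturation, 0 of 21 measured were past 2-fold at the first step, and 3 of 21 were higher and 2 lower at the second. The shares over all genes were 0.932% higher and 0.559% lower at the first step, and 5.89% and 3.73% at the second. Hemgn, a nuclear factor of erythroblasts, was at 66.3, 107 and 893 CPM, a log2 ratio of 3.06 (2.98 to 3.13) at the second step. Bpgm, which makes the 2,3-bisphosphoglycerate that loosens oxygen from haemoglobin, was at 66.3, 122 and 672 CPM. Car2, the main carbonic anhydrase, was at 1345, 1897 and 3251 CPM, while Car1 was at 20.6 and 12.0 CPM and had 0 UMIs at E10.5, at least 72.3-fold lower than at E8.25 against a limit of 3 counts in the E10.5 sum. H1f0, the linker histone of resting cells, was at 187, 241 and 54.4 CPM (31.98 CPM in E10.5 members at 40% globin or more), and Bnip3l, the receptor that clears mitochondria, at 188, 365 and 310 CPM. Antioxidant enzymes summed to 7518, 9039 and 12556 CPM with 0 of 12 past 2-fold at either step. Their most abundant members Prdx2 (2625, 3254 and 5328 CPM) and Gpx1 (1265, 1975 and 3342 CPM) were higher each time.

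Most glycolysis genes were lower at the second step. The 19 genes summed to 15422, 17574 and 3702 CPM, a 4.75-fold lower sum at the second step. The other cells stood at 15039, 19905 and 8298 CPM, 2.40-fold lower. Of 19 genes 1 was higher at the first step, and at the second 2 were higher and 14 lower, with a median of -1.75. Pkm, the last enzyme of the pathway, was at 1939, 2250 and 282 CPM, a log2 ratio of -3.00 (-3.04 to -2.95). Ldha, which makes lactate, was at 3691, 4237 and 599 CPM (-2.82, -2.85 to -2.79), and Aldoa, Eno1 and Gapdh had log2 ratios of -2.44, -2.52 and -1.69. The red cell isoenzyme went the other way. Pklr, the pyruvate kinase of red cells and liver, was at 5.49, 7.29 and 85.3 CPM, higher by 3.55 (3.27 to 3.84). Of the hexokinases, Hk2 was at 57.6, 40.5 and 6.72 CPM and Hk1, the red cell form, at 36.6, 33.4 and 30.6 CPM. Ldhb was at 3.66, 4.09 and 36.7 CPM, with 17.6 CPM in the E10.5 members at 40% globin or more and 93.0 CPM in those below, against 224.5 CPM in the other E10.5 cells. In members at 40% globin or more 2 of 19 were higher and 13 lower, with a median of -1.87.

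The sum of growth genes was lower at each step, while that of ribosomal protein genes was not. Ribosome biogenesis genes summed to 17058, 12962 and 7436 CPM in members and to 12804, 11175 and 8045 CPM in other cells. At the first step 0 of 21 were past 2-fold, and at the second 5 were lower and 0 higher. In E10.5 members at 40% globin or more 6 were lower, beside 5.96% lower over all genes there. The median log2 ratios of the list were -0.21 and -0.83, against 0.06 and -0.03 over all genes. Npm1, the nucleolar chaperone, was at 6716, 4900 and 2374 CPM, Ncl (nucleolin) at 3837, 2214 and 1554 CPM, and Myc at 82.3, 70.3 and 56.3 CPM. Of 91 measured ribosomal protein genes, 2 were higher and 3 lower at the second step, beside 5.89% higher and 3.73% lower over all genes. Their sum was 301890, 307375 and 343163 CPM.

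Cell cycle genes were present at all stages. The S phase list summed to 3420, 3770 and 2964 CPM and the G2 and M list to 5320, 5283 and 6038 CPM, near the other cells at 3188, 3373 and 2691 CPM and at 5841, 5243 and 5711 CPM. Past 2-fold at the second step were 2 of 27 S phase genes, both lower (3 with E10.5 members at 40% globin or more), and 1 of 32 G2 and M genes, higher. Over all genes 5.89% were higher and 3.73% lower at that step. The G2 and M gene was Mki67, the proliferation antigen, at 136, 114 and 301 CPM. Ccne1, the cyclin of entry into S phase, was at 191, 158 and 52.8 CPM, and Ccnd3, the cyclin D of erythroid cells, at 391, 536 and 691 CPM. The inhibitor Cdkn1c was at 27.4, 16.0 and 169 CPM, but at 58.9 CPM in E10.5 members at 40% globin or more and 492 CPM in those below, with 1051 CPM in the other cells. Transcripts of the mitochondrial genome summed to 19701, 19081 and 30250 CPM in members and to 17651, 12128 and 27441 CPM in other cells.

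**Figure D4:**
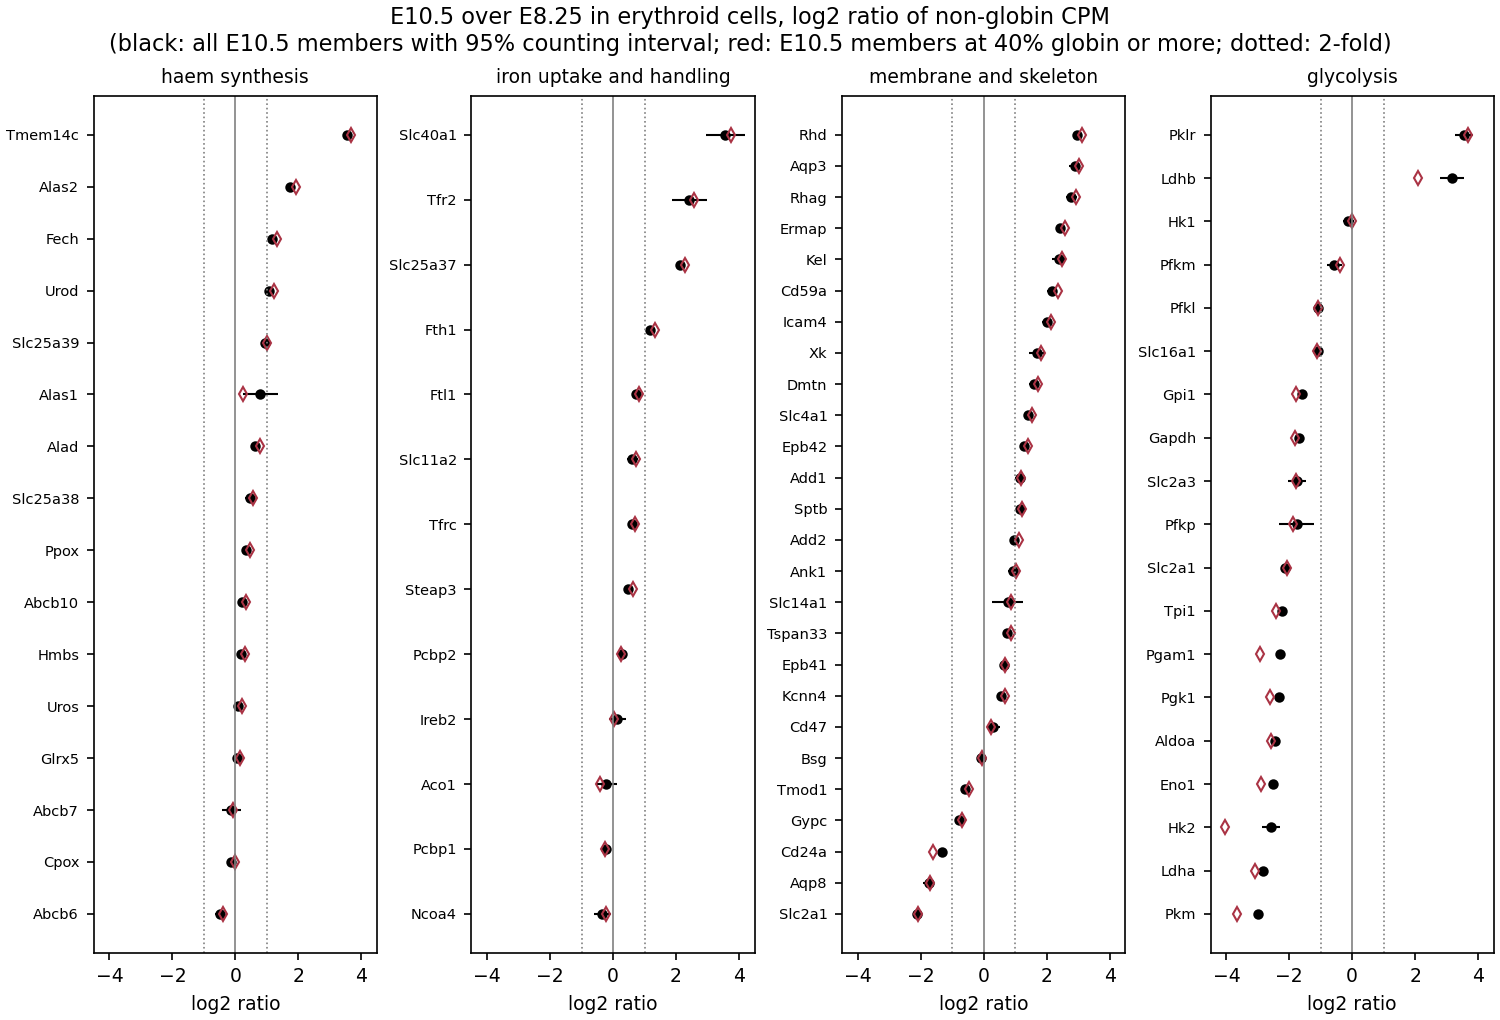
Log2 ratio of E10.5 over E8.25 members for genes of 4 lists, the genes not reported here left out (black points, 95% counting interval) and the same with E10.5 members at 40% globin or more (red diamonds), with 2-fold marked by dotted lines. The panels are haem synthesis, iron handling, membrane and skeleton, and glycolysis. Rhd lies at 2.95 and Pklr at 3.55, Pkm at -3.00 and Ldha at -2.82, with diamonds on the same side.

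Of all genes outside the 7 globins, the 10 taken as highest at E10.5 against E8.25 by the interval bound nearest to 0 included a keratin, a chemokine and 2 metallothioneins. Krt15, an epithelial keratin, had 4, 1 and 4130 UMIs, which is 1.83, 0.0639 and 227.5 CPM, a log2 ratio of 11.80 (9.32 to 17.10). It had a UMI in 998 of 1132 members at E10.5 and was at 249 CPM in those at 40% globin or more, against 1.54 CPM in the other cells. Mt1 and Mt2, small proteins that bind zinc and copper, were at 261, 174 and 5028 CPM and at 148, 100.8 and 2945 CPM, log2 ratios of 4.85 (4.80 to 4.91) and 4.87 (4.80 to 4.94). In the other E10.5 cells they stood at 53.3 and 21.5 CPM. Cxcl13 and C1qb, a chemokine and a macrophage complement gene, had 0 UMIs in E8.25 members and 6.66 and 5.89 CPM at E10.5, with 57.6 and 19.0 CPM in the other E10.5 cells. They were at 3.91 and 2.14 CPM in members at 40% globin or more and at 14.7 and 16.9 CPM in those below.

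Against E8.0, the genes that stood out at E10.5 included Plek2, a pleckstrin that late erythroblasts need to condense and shed their nucleus, at 0.915, 5.82 and 105.3 CPM. Pdzk1ip1 was at 2.74, 6.07 and 166 CPM, Hsd3b6 at 0.457, 2.94 and 68.4 CPM, and the noncoding RNA Lockd at 1.83, 9.46 and 96.0 CPM. Their E8.0 levels rest on few UMIs, 2 for Plek2, 6 for Pdzk1ip1, 1 for Hsd3b6 and 4 for Lockd. Col3a1, a fibroblast collagen, was also among the 10, at 0, 3.77 and 35.6 CPM, with 19.0 CPM in members at 40% globin or more, 84.5 CPM in those below and 210 CPM in the other cells.

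Of the 10 genes taken as lowest at E10.5 against E8.25, Gm29666, Aldh1a3, Gm3839 and Pbld2 were high at E8.25 alone, at 96.7, 26.4, 41.99 and 19.2 CPM against 5.03, 1.83, 3.66 and 1.37 CPM at E8.0. The other cells were also highest at E8.25 for them, at 59.1, 10.7, 39.8 and 20.8 CPM. At E8.0 those cells stood at 3.14, 1.05, 2.57 and 1.67 CPM, and at E10.5 at 1.83, 0.583, 2.62 and 2.03 CPM. Others were high at both early stages. Prss50 was at 45.7 and 47.0 CPM and then had 0 UMIs, at least 285-fold lower than at E8.25 by the same limit of 3 counts. Cpne7 was at 74.99, 69.2 and 0.826 CPM, and Ddah1 (which breaks down an inhibitor of nitric oxide synthesis) at 174, 130 and 3.64 CPM. F10 (coagulation factor X), taken instead from the 10 lowest against E8.0, was at 53.0, 35.8 and 2.75 CPM. These 4 genes stood at 2.44, 2.42, 12.8 and 1.59 CPM in the other E8.25 cells. Phlda2, an imprinted gene, was at 63.6, 27.6 and 1.05 CPM in members and at 1395, 231 and 6.01 CPM in other cells.

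Between E8.0 and E8.25, most leading genes shifted in the other cells too. Egr1, an immediate early gene, had 0 UMIs at first and then 19.6 and 1.65 CPM, at least 14.3-fold higher at E8.25 by the limit of 3 counts, with 1.26, 2.35 and 1.39 CPM in other cells. Gm29666 and Rrm2b, a p53-induced ribonucleotide reductase subunit, were at 5.03, 96.7 and 1.21 CPM and at 2.74, 50.6 and 2.64 CPM in members, and at 3.14, 59.1 and 1.83 CPM and 2.88, 34.0 and 3.96 CPM in other cells. Rpl7a-ps3, a pseudogene that shares sequence with its parent, was at 73.2, 1.15 and 49.0 CPM against 60.8, 2.21 and 33.1 CPM. Fgf3, a growth factor of early mesoderm, was at 46.2, 4.41 and 0.110 CPM in members, and at 8.62, 0.564 and 0.482 CPM in other cells.

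Few genes moved past 2-fold the same way at both steps. There were 17 higher (0.198% of 8582) and 7 lower (0.0816%). Slc4a1, Kel and Gmpr (which recycles guanine nucleotides; 13.7, 55.5 and 321.5 CPM) were among the first 10 higher. The other 7 were Sfrp1, Id2, Tagln, Mfap2, Cxcl12, Basp1 and Crabp2, which were at 79.96, 190, 53.5, 122, 34.9, 155 and 104.7 CPM in E10.5 members under 40% globin and at 9.01, 26.7, 4.28, 27.99, 9.23, 11.5 and 23.2 CPM in the rest. Their E8.25 levels were 7.48, 21.5, 5.11, 19.05, 4.15, 12.9 and 12.7 CPM, so that in E10.5 members at 40% globin or more Tagln and Basp1 were below E8.25, Sfrp1, Id2, Mfap2 and Crabp2 were less than 2-fold above it, and the increase of these 6 at the second step was not held. The 7 lower ones were Fgf3, Sapcd1, Rasgrp2, Psmb10, Runx1, Gsta4 and Tnni3. Psmb10, a subunit of the immunoproteasome, was at 355, 148 and 51.0 CPM.

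Members were also set against the other cells of their own library. Since globin chose the cells, this is a description. Higher in members were 320 of 13560 genes at E8.0 (2.36%), 515 of 12843 at E8.25 (4.01%) and 584 of 13928 at E10.5 (4.19%), and 210 of 12472 measured in all 3 libraries were higher in each. Among the 10 with the highest bounds over all 3 libraries were Hemgn, Ermap, Mrap, Slc25a21, Hbq1b, Klf1, Alas2, Asb17 and Add2. Ermap, a blood group antigen, was at 29.3, 41.2 and 223 CPM in members and at most 1.41 CPM in other cells. Mrap, an accessory protein of the ACTH receptor, was at 53.5, 102 and 115 CPM, Slc25a21, a mitochondrial oxodicarboxylate carrier, at 16.9, 45.8 and 48.3 CPM, and Add2, the beta chain of the membrane skeleton protein adducin, at 34.3, 66.9 and 131 CPM.

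Within a library, members were divided into 3 equal groups by globin share, a division chosen after seeing the data. Hbb-y is part of that globin share, so its values by group are a description and no result of the division. At E8.25 the Hbb-y share of beta-type UMIs was 12.0% in the lowest group, 15.1% in the middle and 29.1% in the highest, and haem synthesis was at 6111, 7166 and 7598 CPM. The single genes named for this division were taken from its own ranking and are a description. Hemgn went from 68.0 to 144 CPM and Aqp3 from 10.7 to 26.4 CPM between the lowest and the highest group. Both fell short of 2-fold by the interval bound (0.90 and 0.85 on the log2 scale). Of 7582 genes measured there, 3 were higher past 2-fold in the highest group and 2 lower. Id2 and Basp1 went from 33.9 to 13.3 CPM and from 20.65 to 8.62 CPM. In E10.5 members at 40% globin or more they were at 26.7 and 11.5 CPM, against 21.5 and 12.9 CPM at E8.25. Mesenchyme markers were at 72.1 CPM in the lowest E8.25 group and 55.0 CPM in the highest, and epithelial markers at 70.8 and 45.5 CPM. The 10 E8.25 members marked as likely doublets had a median of 6.99% globin, and their part in these values was not tested. Egr1 went from 6.64 to 38.2 CPM and Cdkn1a, the Cdk inhibitor p21, from 4.98 to 18.4 CPM. At E8.0 haem synthesis was at 4404, 4534 and 4912 CPM and the Hbb-y share at 3.75, 3.84 and 8.99%, over 23 cells a group.

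At E10.5 the Hbb-y share was flat at 74.3, 74.1 and 74.5%, while haem synthesis was at 9489, 12470 and 12920 CPM and ribosome biogenesis at 8166, 7436 and 6328 CPM. Alas2 went from 994 to 1730 CPM, Rhd from 201 to 387 CPM and Mt1 from 3802 to 6329 CPM between the lowest and the highest group, each within 2-fold. Of 8404 genes measured there, 3 were higher past 2-fold in the highest group and 490 lower. Mesenchyme markers were at 272 CPM in the lowest group and at 68.2 and 76.4 CPM in the others, and Basp1, a cytoskeletal gene of other tissues, at 105.1 CPM in the lowest and 10.2 CPM in the highest. Glycolysis was at 4587, 3211 and 2982 CPM. No glycolysis sum of a group at E8.0 or E8.25 was under 15335 CPM, and no haem synthesis sum of these 3 groups at E10.5 was under 9489 CPM, though the 22 members at 5 to 20% globin were at 3342 CPM.

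**Figure D5:**
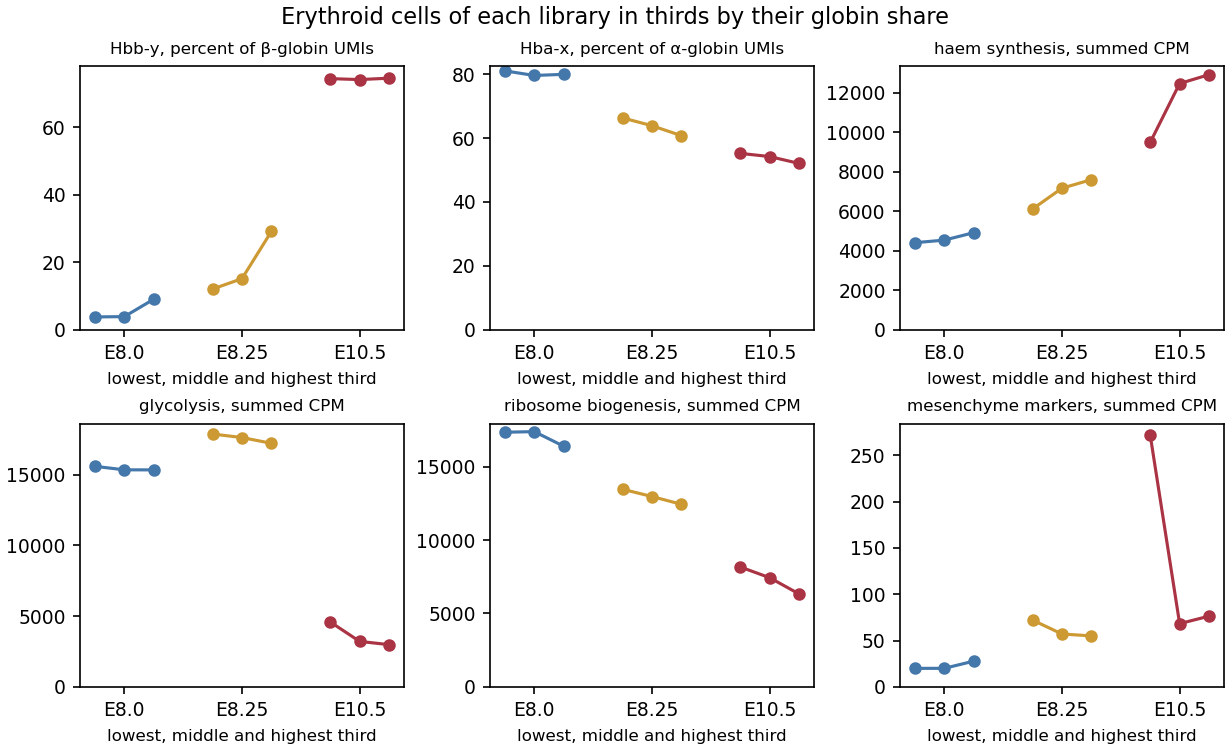
Values in the 3 equal groups of members by globin share, from lowest to highest, in each library. The lines for haem synthesis and glycolysis (summed non-globin CPM) stay apart by stage, and mesenchyme markers are high in the lowest group at E10.5 (272 CPM). The Hbb-y share goes from 12.0 to 29.1% at E8.25, a description, since Hbb-y is part of the globin share that made the groups.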

How the data were processed

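Members and gene lists were chosen with earlier results of these data known, and the alternatives at 2% and 40% globin, the subtraction of other cells' ratios and the division into 3 groups after seeing these values. Each library is a 10x Genomics version 2 3' library. The authors aligned reads to mm10 with Cell Ranger 3.1.0 (per the labels) and deposited raw UMI counts for 27998 genes in called cells, with no normalization. Counts of members were summed per library (2327807, 17618719 and 32235010 UMIs) and scaled to UMIs outside the 7 globins. Log2 ratios have exact conditional binomial intervals, levels exact Poisson intervals and shares Clopper-Pearson intervals, all at 95% and for counting error alone. With 1 library per stage no test was made. Doublets were kept. Marking by Scrublet (scanpy 1.11.5) at 0.8% per 1000 cells, an alternative, removed 1, 10 and 103 members, the last with a median of 29.7% globin. Named genes were the 10 in each direction with the interval bound farthest from 0 for each comparison, the 10 highest against other cells in all libraries, those past 2-fold at both steps, and genes of 28 fixed lists. Python 3.11.15, numpy 2.4.6, scipy 1.17.1 and pandas 2.3.3 were used, with edgeR 4.0.16 for TMM factors as an alternative scaling of the sums. The libraries shared 273 barcodes over all pairs. Some genes are counted in the lists but not reported here by name. Promoters came from the RefSeq table. The ratio script was tested on simulated data.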

Additional observations from a re-analysis of the deposited data

Results flagged for a closer look

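The E9.5 library, which the choice of members left out, held 6 cells over the same globin threshold, of 4052 that passed the mitochondrial filter (0.148%, exact Clopper-Pearson interval 0.0544 to 0.322%). They are listed because they lie outside the comparisons of the report. Their globin shares were 6.72, 7.19, 14.6, 14.6, 21.6 and 26.0%, all under the E10.5 median of 45.7%. Klf1 had 0 UMIs in 3 of them. Over the 6 cells Hbb-y made up 62.1% of beta-type UMIs, from 0.178 to 97.5% in single cells.

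Myb, a factor of blood progenitors, lay on opposite sides of the other cells at 2 stages. Members over other cells had a log2 ratio of 2.87 at E8.0 (6.86 against 0.9403 CPM) and of -2.19 at E10.5 (0.551 against 2.51 CPM). The difference between the stages was not tested.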

How the results depend on the processing

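No paired analysis was possible because each stage has 1 library, and no library could be left out for the same reason. Over all alternatives, 15 member shares were within their interval of the main value and 6 moved, 56 counts of genes past 2-fold were within 1.5 times of the main count and 16 moved, 615 list medians held, 102 moved and 3 reversed, and 791 ratios of single genes held, 129 moved and 12 reversed. The member share at E8.0 was 2.13% at a threshold of 2% globin and 0 at 10% or 20%. At E8.25 it was 7.75% at 10% and 0 at 20%, so no ratio with E8.0 could be made at 10% and none with either early stage at 20%. At E10.5 it was 11.3% at 40%. Globin made up 4.70% of UMIs at E8.0 with the 2% threshold and 5.85% as a median over cells. At E8.25 it was 12.4% at 10%, 11.4% without marked doublets and 11.0% at 2%. At E10.5 it was 44.2% at 20%, 43.9% at 10%, 45.8% without marked doublets, 43.4% at 2%, 46.9% at 40% and 45.7% as a median over cells.

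Between E8.0 and E8.25 the lower genes numbered 83 with no filter on low counts (1 UMI in each sum), 28 with at least 200 UMIs and 85 with the 2% threshold. With the ratio of the other cells subtracted there were 37 higher and 18 lower. For E10.5 over E8.25 the counts were 264 higher and 1863 lower scaled to all UMIs, 331 higher with at least 200 UMIs, 389 higher without marked doublets, 371 higher and 568 lower at 40% globin, and 119 higher with the other cells subtracted. For E10.5 over E8.0 they were 197 higher and 1633 lower scaled to all UMIs, and 197 higher and 193 lower with the other cells subtracted. Subtracting the other cells reversed Slc4a1 (-1.27), Gm3839 (-0.43), Fgf3 (0.55), Rpl36-ps3 (0.10) and mt-Nd4l (0.0268) between E8.0 and E8.25, and Gm10320 (-0.43), Phlda2 (0.54), Crabp2 (-0.0813) and the cardiomyocyte median (-0.0029) between E8.25 and E10.5, with Phlda2 at 1.94 between E8.0 and E10.5. Without marked doublets the mesenchyme median was -0.0177 and Tagln -0.27, and at 40% globin they were -0.11 and -0.26, with Basp1 at -0.17. The cause was not tested. The 69 cells at E8.0 limit what that stage can show: a gene with 0 UMIs there could have up to 1.37 CPM by the limit of 3 counts.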
